A study of Homo sapiens with 6 samples.

Results

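The NRF2 pathway was described in H2452 cells, an established human pleural mesothelioma line, through 10 genes taken by symbol from the deposited count and FPKM tables. They are the transcription factor gene *NFE2L2*, its repressor *KEAP1*, and the target genes *NQO1*, *HMOX1*, *TXNRD1*, *GCLC*, *GCLM*, *SRXN1*, *AKR1C1* and *OSGIN1*, out of 58735 genes in the tables. All 10 were found once in each table, and all 10 passed the filter on low counts. The whole series is RNA sequencing of 6 libraries, 3 from cells labelled WT that carry a scrambled control guide (sgCtrl) and 3 from cells labelled NF2-KO that carry a guide against *NF2* (sgNF2-1). Both kinds of cells received Cas9 and the guide from 1 lentiviral vector, were sorted for mCherry, and were grown in the same serum-containing medium. They are sorted populations made with 1 guide each, in 1 cell line, and the samples are described as tumor tissue although the cells are a culture. The labels do not say whether replicates came from separate cultures. The study states in general that its sample numbers are biological replicates, without describing separate cultures for these libraries. The p-values therefore measure only the spread between these libraries, which may be technical.

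NRF2, the protein of *NFE2L2*, is held at a low level by KEAP1, which presents it to a ubiquitin ligase built on CUL3 and RBX1. Electrophiles and oxidants modify KEAP1, after which NRF2 accumulates, pairs with a small MAF protein (MAFF, MAFG or MAFK) and binds antioxidant response elements near genes for glutathione synthesis, thioredoxin recycling, quinone reduction and haem breakdown. BACH1 competes for the same elements, and SQSTM1, also called p62, can draw KEAP1 away from NRF2. NRF2 is controlled largely through the stability of the protein, which transcript counts do not measure.

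Total counts ranged from 15403298 to 16083906 in sgCtrl and from 14782423 to 17416463 in sgNF2-1. *NF2* itself had a level of 71.4 ± 3.36 CPM in sgCtrl and 44.2 ± 6.77 CPM in sgNF2-1 (mean ± SD, 3 libraries each) and was lower in the latter by edgeR (log2 fold change -0.69, adjusted p = 7.9e-06). CPM is a count as a share of its library, with library sizes scaled by TMM. The share of counts from the mitochondrial genome was 2.65 to 3.69% in sgCtrl and 3.67 to 4.67% in sgNF2-1, and its part in the results below was not tested. Of 10 mesothelial and epithelial markers, 9 passed the filter and *KRT5* did not, with *CALB2* and *UPK3B* under 5 CPM in both groups, and their summed level, most of it *KRT8* and *KRT18*, was 3480 to 3925 CPM in sgCtrl and 3372 to 4132 CPM in sgNF2-1. Single markers differed between the groups in both directions: by edgeR, *PDPN* (log2 fold change -1.28), *WT1* (-1.04) and *KRT19* (-0.94) were lower in sgNF2-1, and *KRT7* (1.203), *MSLN* (0.66) and *KRT18* (0.28) were higher. Their part in the results below was not tested. Of 9 markers of blood, endothelial and liver cells, 7 had at most 5 counts in any library, among them *PTPRC* at 0 in all libraries. The summed level of that list was 6.66 to 9.02 CPM in sgCtrl and 2.27 to 3.63 CPM in sgNF2-1, with *PECAM1* at a mean of 6.314 and 1.296 CPM. In bulk libraries, fewer cells of a type and less RNA per cell cannot be told apart.

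In sgNF2-1 cells, 4 of the 8 target transcripts, *AKR1C1*, *GCLM*, *TXNRD1* and *NQO1*, were lower and *NFE2L2* was higher. The other 5 genes did not pass the test. A gene is called here at a Benjamini-Hochberg adjusted p under 0.05 in edgeR's quasi-likelihood test over the 14179 genes that passed the filter. By this rule, 1 of the 10 genes was higher in sgNF2-1 and 4 were lower, where 17.7% of all tested genes were higher and 16.6% lower, 34.3% in all. With the study's limit of 0.5 on the log2 fold change added, *AKR1C1* and *GCLM* were lower and no gene was higher, against 9.32% and 8.42% of all tested genes. The same genes passed that limit with an unadjusted p under 0.05, where the background was 10.8% lower and 9.22% higher. The median log2 fold change of the 10 genes was -0.12, and that of all tested genes was 0.00 to 2 decimals. Together the 10 genes took 0.545 to 0.588% of all counts in the sgCtrl libraries and 0.419 to 0.439% in the sgNF2-1 libraries, and most of both shares was *TXNRD1*.

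**Figure D1:**
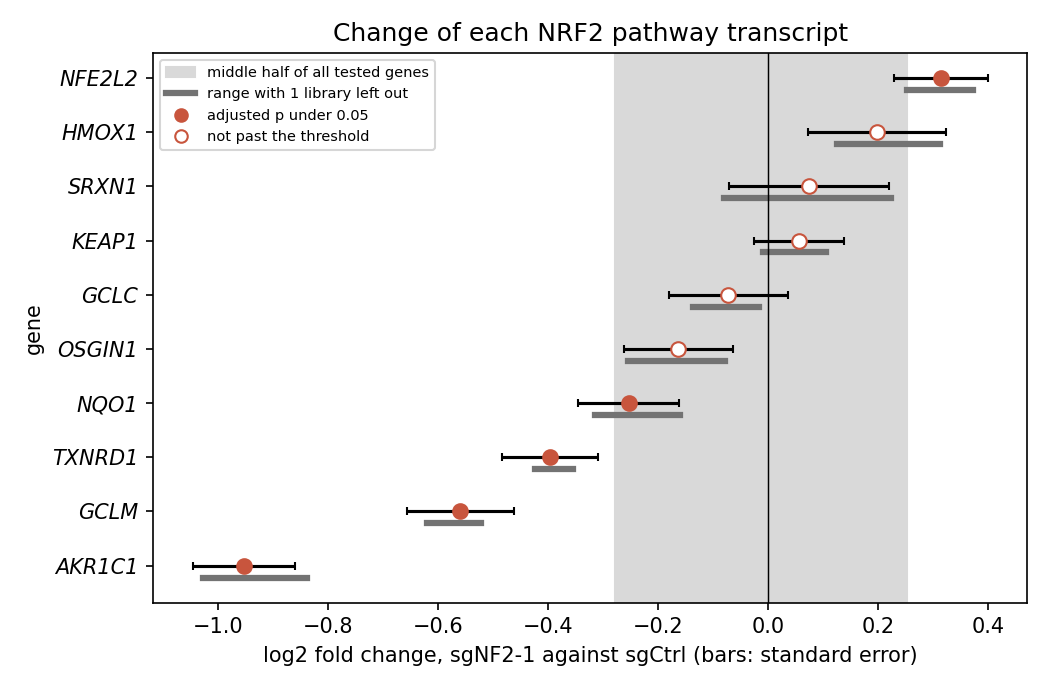
Log2 fold change of each of the 10 genes in sgNF2-1 against sgCtrl (x axis), with the standard error as black bars, the range when any 1 library was left out as grey bars, and the interquartile range of all 14179 tested genes (-0.28 to 0.25) as shading. Filled points passed an edgeR adjusted p of 0.05: *NFE2L2* lies to the right at 0.31, and *NQO1*, *TXNRD1*, *GCLM* and *AKR1C1* lie to the left, down to -0.95.

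*NFE2L2* (ENSG00000116044, chromosome 2 of GRCh38, 177227595 to 177392697, minus strand) gave 2043, 2417 and 2267 counts in sgCtrl replicates 1 to 3, against 3330, 2740 and 2324 in sgNF2-1 replicates 1 to 3. As CPM these were 129.6, 147.3 and 149.4 in sgCtrl and 189.2, 177.5 and 163.2 in sgNF2-1. Every sgNF2-1 library was above every sgCtrl library, by the smallest margin for sgNF2-1 replicate 3. Its mean rose from 142.1 ± 10.8 to 176.7 ± 13.0 CPM (mean ± SD, 3 libraries each), to 124.3% of sgCtrl. The log2 fold change was 0.31 (standard error 0.085, edgeR adjusted p = 0.0055), and the two-sided exact permutation p was 0.1, the smallest that 3 libraries against 3 allow. With 1 library left out, the fold change lay between 0.25 and 0.37, with an adjusted p of at most 0.048. On the opposite strand, *AGPS* overlaps the span of *NFE2L2*. Its mean of 1400 counts was 55.6% of that of *NFE2L2*, and its log2 fold change was 0.20 (edgeR adjusted p = 0.10). Whether counting used strand is not given in the sources used here.

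*KEAP1* (ENSG00000079999, chromosome 19, 10486120 to 10503741, minus strand) had 191.8, 193.2 and 190.3 CPM in sgCtrl and 187.1, 193.1 and 218.2 CPM in sgNF2-1. The groups overlapped, with sgNF2-1 replicate 1 lowest of all libraries and replicate 3 highest. The log2 fold change was 0.06 (standard error 0.08, 95% interval -0.10 to 0.22, edgeR adjusted p = 0.63). The ratio of *NFE2L2* to *KEAP1* within a library, computed from FPKM values, which are divided by gene length, was 0.425, 0.480 and 0.494 in sgCtrl and 0.636, 0.578 and 0.470 in sgNF2-1. The third sgNF2-1 library lay within the sgCtrl range (two-sided exact permutation p = 0.3).

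*AKR1C1* (ENSG00000187134, chromosome 10, 4963253 to 4983283, plus strand), an aldo-keto reductase that reduces steroids and reactive carbonyls, had the largest change of the 10 genes in either direction. It gave 10151, 11260 and 12575 counts in sgCtrl, against 6230, 5672 and 5607 in sgNF2-1. Its CPM were 644, 686 and 828.7 in sgCtrl and 354, 367.5 and 393.7 in sgNF2-1, so that the highest sgNF2-1 library was well below the lowest sgCtrl library. The mean fell from 719.6 ± 96.8 to 371.8 ± 20.2 CPM (mean ± SD, 3 libraries each), to 51.7% of sgCtrl. The log2 fold change was -0.95 (standard error 0.09, edgeR adjusted p = 1.6e-08), and it lay between -1.03 and -0.84 with any 1 library left out.

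*TXNRD1* (ENSG00000198431, chromosome 12, 104215779 to 104350305, plus strand) encodes the cytosolic thioredoxin reductase, a selenoprotein that returns oxidized thioredoxin to its reduced form at the cost of NADPH. Among all tested genes it ranked 13 by mean sgCtrl CPM, and *NQO1* ranked 90. Its counts were 50553, 53174 and 52858 in sgCtrl and 46166, 38414 and 34716 in sgNF2-1, which is 3207, 3240 and 3483 CPM against 2624, 2489 and 2438 CPM. The groups lay apart, and the spread within each was small beside the gap. The mean fell from 3310 ± 151 to 2517 ± 96.0 CPM (mean ± SD, 3 libraries each), to 76% of sgCtrl, with a log2 fold change of -0.40 (standard error 0.09, edgeR adjusted p = 0.00097, -0.42 to -0.35 with 1 library left out). Inside its span lie *RPL18AP3* and *EID3* on the same strand and an antisense gene, *AC089983.1*. Their mean counts were 6.56, 0.314 and 2.89% of that of *TXNRD1*, and their log2 fold changes were 0.59, -0.88 and -0.25 (edgeR adjusted p = 4.7e-05, 0.00072 and 0.054).

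*GCLM* (ENSG00000023909, chromosome 1, 93885205 to 93909456, minus strand) and *GCLC* (ENSG00000001084, chromosome 6, 53497341 to 53616970, minus strand) encode the modifier and the catalytic subunit of glutamate-cysteine ligase, the rate-limiting enzyme of glutathione synthesis. *GCLM* gave 885, 812 and 860 counts in sgCtrl, against 630, 603 and 502 in sgNF2-1, or 56.2, 49.5 and 56.7 CPM against 35.8, 39.1 and 35.3 CPM. All 3 sgNF2-1 libraries were below all 3 sgCtrl libraries. Its mean fell from 54.1 ± 4.02 to 36.7 ± 2.06 CPM (mean ± SD, 3 libraries each), to 67.9% of sgCtrl, with a log2 fold change of -0.56 (standard error 0.10, edgeR adjusted p = 7.0e-05, -0.62 to -0.52 with 1 library left out).

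For *GCLC* the CPM were 28.2, 29.7 and 24.98 in sgCtrl and 27.2, 25.6 and 26.1 in sgNF2-1, where the groups overlapped. Its log2 fold change was -0.07 (standard error 0.11, 95% interval -0.29 to 0.14, edgeR adjusted p = 0.65). The FPKM ratio of *GCLM* to *GCLC* was 3.18, 2.66 and 3.62 in sgCtrl and 2.10, 2.44 and 2.16 in sgNF2-1, and the groups did not overlap. On the log2 scale the ratio fell by 0.49 (two-sided exact permutation p = 0.1, and 0.13 after adjustment over the 4 ratios compared, so that no ratio could pass 0.05).

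*NQO1* (ENSG00000181019, chromosome 16, 69706996 to 69726951, minus strand), the quinone reductase that is often read as the standard NRF2 target, had 953.5, 1003 and 1171 CPM in sgCtrl and 833.3, 838.5 and 952.8 CPM in sgNF2-1. The groups did not overlap, but sgNF2-1 replicate 3 reached almost the level of sgCtrl replicate 1. The mean fell from 1042 ± 114 to 874.9 ± 67.5 CPM (mean ± SD, 3 libraries each), to 83.9% of sgCtrl, with a log2 fold change of -0.25 (standard error 0.09, edgeR adjusted p = 0.035). This call was lost without sgCtrl replicate 2 (adjusted p = 0.054), without sgCtrl replicate 3 (log2 fold change -0.16, adjusted p = 0.17), without sgNF2-1 replicate 1 (0.15) and without sgNF2-1 replicate 2 (0.14), all in edgeR. Counting only the genes whose groups did not overlap, *NQO1* and the other lower genes made 4 and *NFE2L2* made 1 of the 10, where 22.2% of all tested genes lay apart in the lower direction and 23.2% in the higher.

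**Figure D2:**
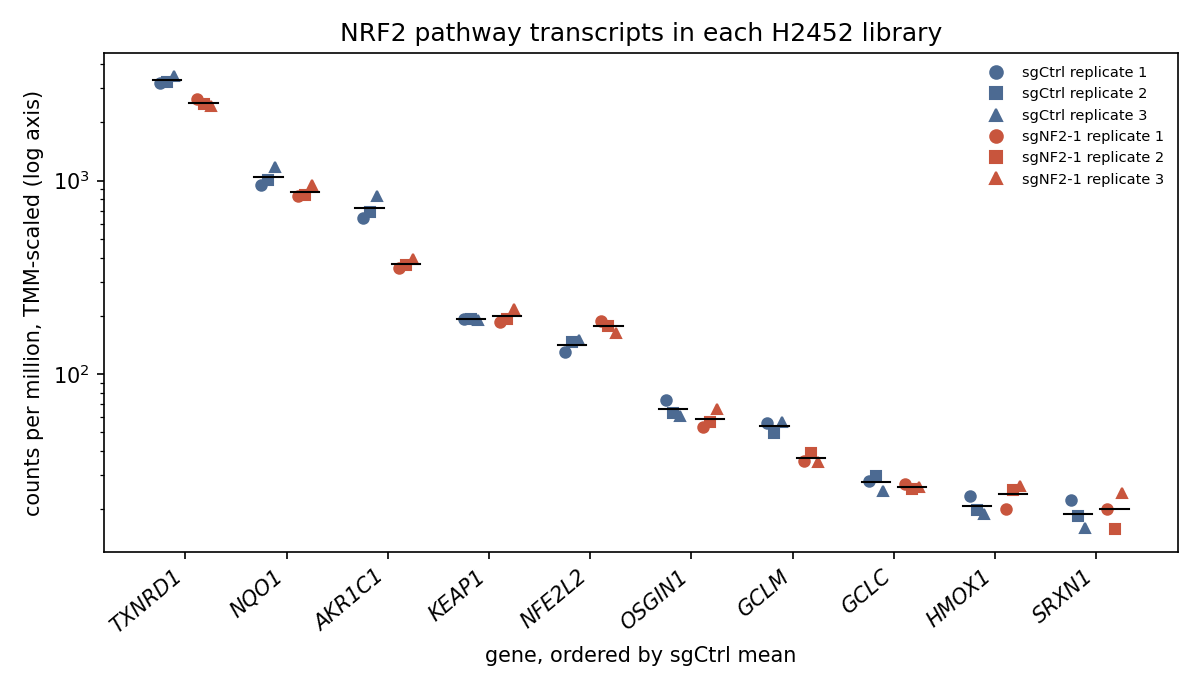
Level of the 10 genes in each library, as CPM scaled by TMM (y axis, logarithmic), ordered by the sgCtrl mean. Each point is 1 library, with its replicate number as shape and its group as colour, and the horizontal lines are group means. The sgNF2-1 points lie below the sgCtrl points for *TXNRD1*, *NQO1*, *AKR1C1* and *GCLM*, above them for *NFE2L2*, and among them for the rest.

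The remaining targets were not called and their groups overlapped, which does not show that they were unchanged. *HMOX1* (ENSG00000100292, chromosome 22, 35380361 to 35394214, plus strand), the inducible haem oxygenase and a gene with several activators besides NRF2, had 23.6, 19.8 and 19.0 CPM in sgCtrl and 20.2, 25.1 and 26.5 CPM in sgNF2-1. Two-sided exact permutation gave p = 0.2, and the log2 fold change was 0.20 (standard error 0.125, 95% interval -0.05 to 0.44, edgeR adjusted p = 0.23). It was the target with the largest positive value, with overlapping groups.

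*SRXN1* (ENSG00000271303, chromosome 20, 646615 to 653370, minus strand), sulfiredoxin, which repairs overoxidized peroxiredoxins, had 22.5, 18.5 and 16.1 CPM in sgCtrl and 20.1, 15.8 and 24.4 CPM in sgNF2-1. The highest and the lowest library both belonged to sgNF2-1. Its log2 fold change of 0.08 had the widest error of the 10 genes (standard error 0.15, 95% interval -0.21 to 0.36, edgeR adjusted p = 0.73).

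*OSGIN1* (ENSG00000140961, chromosome 16, 83948282 to 83966332, plus strand), an oxidative stress-induced growth inhibitor, had 73.2, 63.4 and 60.8 CPM in sgCtrl and 53.1, 57.0 and 66.4 CPM in sgNF2-1. The groups overlapped through sgNF2-1 replicate 3. The log2 fold change was -0.16 (standard error 0.10, 95% interval -0.36 to 0.03, edgeR adjusted p = 0.215), and the adjusted p lay between 0.058 and 0.64 over the 12 alternatives.

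Levels of different genes were compared as FPKM. In sgCtrl they ran from 467.6 ± 20.7 FPKM for *TXNRD1* and 303.6 ± 32.8 for *NQO1* through *AKR1C1* (77.8 ± 10.4), *KEAP1* (48.3 ± 0.439), *NFE2L2* (22.5 ± 1.72), *OSGIN1* (18.02 ± 1.81), *GCLM* (9.46 ± 0.689), *HMOX1* (8.20 ± 0.964) and *SRXN1* (6.70 ± 1.14 FPKM) down to *GCLC* (3.03 ± 0.267 FPKM; SD, n = 3). The FPKM of the top gene was 154.5 times that of the bottom gene. Between neighbours in this order the libraries overlapped for *GCLM* and *HMOX1* and for *HMOX1* and *SRXN1*. In sgNF2-1, *AKR1C1* (39.8 ± 2.13 FPKM) stood below *KEAP1* (49.8 ± 4.06 FPKM), and *GCLM* (6.36 ± 0.374 FPKM) below *HMOX1* (9.35 ± 1.29) and *SRXN1* (7.001 ± 1.49 FPKM), the last pair with overlapping libraries. The order depends on the gene lengths used as divisors, which may exceed those of the transcripts present. They were 8765 bases for *AKR1C1*, 3761 for *KEAP1*, 6708 for *TXNRD1* and 8646 for *GCLC*. As CPM, which are not divided by length, *AKR1C1* stood above *KEAP1* in sgNF2-1 (371.8 against 199.5).

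Tested with limma on log2(FPKM + 1), where differences of low genes come out too small, 3 of the 10 genes were lower and 1 was higher, where 14.1% and 14.3% of the 13038 tested genes were. The lower genes were *AKR1C1* (-0.94, standard error 0.10, limma adjusted p = 0.00053), *GCLM* (-0.51, standard error 0.075, adjusted p = 0.0025) and *TXNRD1* (-0.41, standard error 0.08, adjusted p = 0.0075). *NFE2L2* was higher by 0.29 (standard error 0.08, limma adjusted p = 0.033). That call was lost without a filter on low FPKM (adjusted p = 0.083), with a replicate block (0.062) and without sgCtrl replicate 1 (0.097) or 2 (0.064) or sgNF2-1 replicate 1 (0.11) or 2 (0.093). *NQO1* did not pass on this scale (-0.26, standard error 0.10, limma adjusted p = 0.091) but did with the block (adjusted p = 0.0195).

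To see whether an antioxidant response element lies close to the start of these genes, the RefSeq promoter windows (GRCh38.p14, 250 bases before to 50 bases after the start) were searched on both strands for TGACNNNGC, the core of the element, which can overlap the AP-1 site TGACTCA. The window was found for 9 of the 10 genes, all but *HMOX1*, which was therefore not searched. The letters occur in 2 of these 9 windows, *TXNRD1* with 2 matches and *GCLM* with 1, and in 13.3% of all 35116 windows of that length. In the wider antioxidant lists below, 17 of 85 windows (20%) hold them. Both genes with a match fell in sgNF2-1, and so did *AKR1C1* and *NQO1*, whose windows hold none. Only 1 window per gene was searched, so a window without a match does not show that a gene lacks an element. Sequence farther away or at other starts was not searched. For *NFE2L2*, *KEAP1*, *NQO1*, *GCLC* and *OSGIN1*, the window lies wholly inside the gene span given above. These windows are shown for *TXNRD1*, *GCLM*, its partner *GCLC* and *AKR1C1*, the gene with the largest change, written 5′ to 3′ along the gene with the matches in capitals. In *TXNRD1* (chr12:104215529-104215828, plus strand) the first match, TGACTTCGC, begins 99 bases before the start, and the second, TGACGGAGC, reads on the opposite strand, so that its reverse complement is printed, and reaches the start itself. In *GCLM* (chr1:93909381-93909680, minus strand) the match, TGACTAAGC, reads on the opposite strand from 34 to 26 bases before the start. A match describes these letters and does not show binding.
TXNRD1: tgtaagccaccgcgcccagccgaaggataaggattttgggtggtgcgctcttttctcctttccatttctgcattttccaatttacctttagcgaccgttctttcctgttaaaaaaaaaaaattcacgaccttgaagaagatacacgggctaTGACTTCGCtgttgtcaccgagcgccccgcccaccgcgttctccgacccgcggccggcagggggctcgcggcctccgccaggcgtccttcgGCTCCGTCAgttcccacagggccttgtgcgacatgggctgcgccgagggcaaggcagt
GCLM: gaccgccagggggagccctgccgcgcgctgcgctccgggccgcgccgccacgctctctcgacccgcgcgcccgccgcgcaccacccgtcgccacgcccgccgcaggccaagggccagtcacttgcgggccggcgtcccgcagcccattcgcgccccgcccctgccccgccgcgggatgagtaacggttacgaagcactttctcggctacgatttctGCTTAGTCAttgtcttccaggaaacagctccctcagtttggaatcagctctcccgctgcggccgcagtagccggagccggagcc
GCLC (chr6:53545052-53545351, minus strand): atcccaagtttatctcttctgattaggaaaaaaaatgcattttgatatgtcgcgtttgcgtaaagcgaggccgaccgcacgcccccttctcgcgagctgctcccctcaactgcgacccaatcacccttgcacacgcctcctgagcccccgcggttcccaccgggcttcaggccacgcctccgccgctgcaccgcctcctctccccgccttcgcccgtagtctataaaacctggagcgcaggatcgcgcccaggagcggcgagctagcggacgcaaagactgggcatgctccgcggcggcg
AKR1C1 (chr10:4963165-4963464, plus strand): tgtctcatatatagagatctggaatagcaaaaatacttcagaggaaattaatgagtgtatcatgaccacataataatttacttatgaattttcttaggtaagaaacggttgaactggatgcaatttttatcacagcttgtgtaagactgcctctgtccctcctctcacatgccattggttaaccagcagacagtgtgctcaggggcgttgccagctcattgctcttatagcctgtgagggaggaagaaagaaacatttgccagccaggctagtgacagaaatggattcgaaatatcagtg

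*AKR1C1* lies in a cluster of near-identical genes, so its counts were set beside those of its neighbours. The coding sequences of *AKR1C1* and *AKR1C2* in GENCODE release 29 share 950 of 969 bases (98%), with an identical run of 186 bases, while *AKR1C3* and *AKR1C4* share 91.4% and 88.8%. Reads that match several genes are therefore uncertain between *AKR1C1* and *AKR1C2* above all. *AKR1C2* gave 642, 657 and 707 counts in sgCtrl, against 134, 169 and 147 in sgNF2-1, and fell from 42.4 ± 3.603 to 9.63 ± 1.77 CPM (mean ± SD, 3 libraries each; log2 fold change -2.15, standard error 0.13, edgeR adjusted p = 6.0e-12). *AKR1C3*, a ketosteroid reductase, gave 5976, 6228 and 7278 counts against 3068, 2864 and 2900, and fell from 412.7 ± 57.9 to 187.9 ± 14.8 CPM (-1.14, standard error 0.095, edgeR adjusted p = 1.2e-09). *AKR1C4* was much lower in level and fell from 4.61 ± 0.642 to 2.89 ± 0.503 CPM (-0.67, standard error 0.23, edgeR adjusted p = 0.0295). In each of *AKR1C1*, *AKR1C2*, *AKR1C3* and *AKR1C4*, every sgNF2-1 library lay below every sgCtrl library.

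With *AKR1C1* to *AKR1C4* summed as 1 feature, the log2 fold change was -1.04 (standard error 0.095, edgeR adjusted p = 5.0e-09), against -0.95 for *AKR1C1* alone. The FPKM ratio of *AKR1C1* to *AKR1C2* was 11.7, 12.6 and 13.1 in sgCtrl and 34.3, 24.7 and 28.1 in sgNF2-1. The ratio of *AKR1C1* to *AKR1C3* was 0.878, 0.935 and 0.893 against 1.05, 1.02 and 1.00. Both ratios were higher in every sgNF2-1 library (two-sided exact permutation p = 0.1, and 0.13 adjusted over the 4 ratios).

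**Figure D3:**
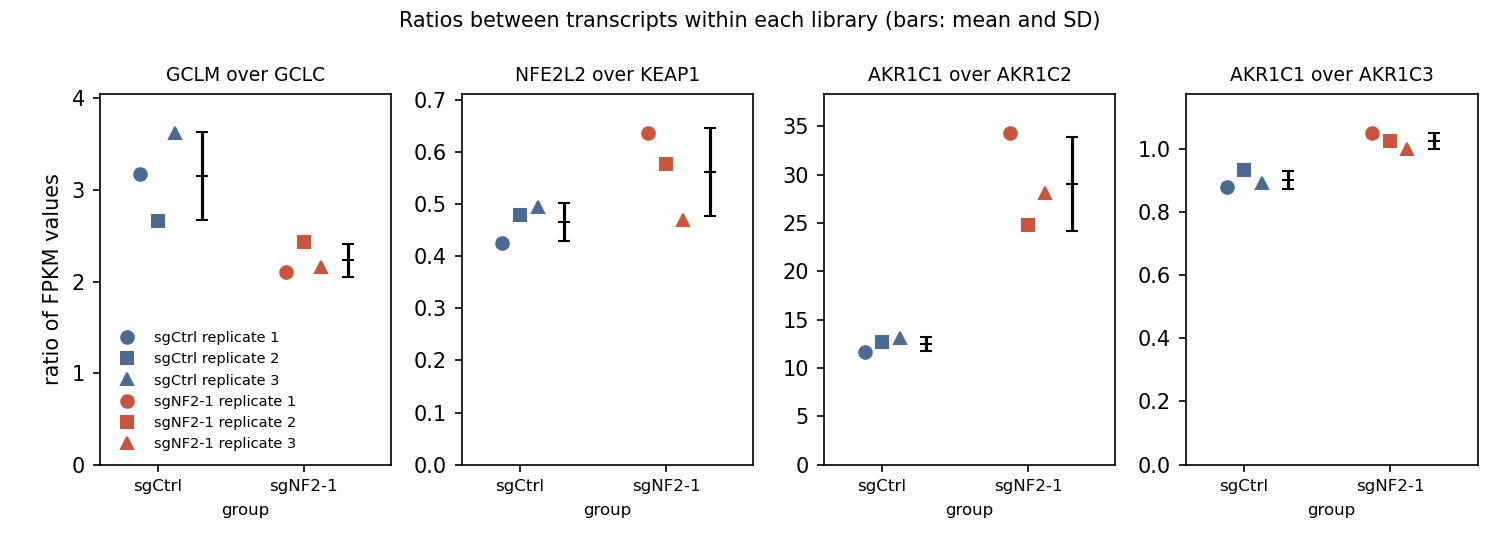
FPKM ratios between pairs of transcripts in each library (y axes, linear from 0), with the mean and SD of 3 libraries beside the points of each group. *GCLM* over *GCLC* lies lower and both *AKR1C1* ratios lie higher in all sgNF2-1 libraries, while 1 sgNF2-1 value of *NFE2L2* over *KEAP1* lies within the sgCtrl range.

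The partners of NRF2 were taken from a list of 13 regulators, all tested, of which 1 was higher and 1 lower (median log2 fold change 0.07), below the 17.7% and 16.6% of all tested genes. *MAFF*, a small MAF protein that lacks an activation domain, rose from 51.9 ± 4.43 to 90.3 ± 3.89 CPM (mean ± SD, 3 libraries each; log2 fold change 0.80, standard error 0.09, edgeR adjusted p = 1.5e-07). *RBX1*, the RING subunit of the ligase that receives NRF2 from KEAP1, fell from 68.0 ± 4.01 to 46.3 ± 3.61 CPM (-0.55, standard error 0.09, edgeR adjusted p = 4.5e-05). *CUL3* (-0.07), *SQSTM1* (0.12), *BACH1* (-0.12) and *MAFG* (0.15) did not pass, with edgeR adjusted p from 0.20 to 0.61. *MAFK* was at 0.22 (adjusted p = 0.12) and passed without sgCtrl replicate 1 (log2 fold change 0.36, adjusted p = 0.013) and without the filter (adjusted p = 0.046).

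Beyond the 10 genes and these partners, 6 more lists of antioxidant genes were read by their counts. Over all 7 lists, with 93 of 103 genes tested, 14 were higher and 31 lower, with a median log2 fold change of -0.11, where 17.7% and 16.6% of all tested genes were called. The excess of lower genes lay mostly in the enzymes of quinone, aldehyde and drug metabolism. There, 15 of 23 tested genes were lower and 1 was higher, with a median of -0.42. After *AKR1C2* and *AKR1C3*, the gene named by the rule is *AKR1B10*, an aldo-keto reductase of retinal and other carbonyls and the largest fall of any list. It went from 32.4 ± 2.50 to 5.30 ± 2.06 CPM (mean ± SD, 3 libraries each; -2.59, standard error 0.17, edgeR adjusted p = 2.3e-11).

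Of the 22 tested genes of the glutathione list, 6 were higher and 5 lower (median -0.08), not far above the 17.7% and 16.6% of all tested genes. *CHAC1* and *CHAC2*, enzymes that break glutathione down, rose by 2.05 and 0.96 on the log2 scale (standard errors 0.105 and 0.21, edgeR adjusted p = 2.1e-13 and 0.00083). *SLC7A11*, the cystine carrier that feeds glutathione synthesis and is a target of both NRF2 and ATF4, rose from 346.5 ± 23.7 to 473 ± 47.1 CPM (mean ± SD, 3 libraries each; 0.45, standard error 0.09, edgeR adjusted p = 0.00028). *GPX3*, the secreted glutathione peroxidase, fell from 27.1 ± 1.24 to 11.0 ± 0.751 CPM (-1.30, standard error 0.12, edgeR adjusted p = 7.7e-09).

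In the thioredoxin and peroxiredoxin list, 4 of 13 tested genes were higher and 2 lower (median -0.07), the latter about the share of all tested genes (17.7% higher, 16.6% lower). *TXNRD2*, the mitochondrial counterpart of *TXNRD1*, rose from 55.6 ± 7.86 to 93.4 ± 12.8 CPM (mean ± SD, 3 libraries each; 0.75, standard error 0.105, edgeR adjusted p = 4.7e-06), and *SESN2*, a stress-induced inhibitor of mTORC1, rose by 1.93 on the log2 scale (standard error 0.09, edgeR adjusted p = 3.0e-14). *PRDX1*, the abundant cytosolic peroxiredoxin and an NRF2 target, fell from 386.8 ± 47.9 to 253.8 ± 20.0 CPM (-0.61, standard error 0.09, edgeR adjusted p = 1.2e-05).

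None of the 8 genes of NADPH supply was higher and 3 were lower (median -0.17), against 17.7% and 16.6% of all tested genes. These were the isocitrate dehydrogenases *IDH2* (-0.51) and *IDH1* (-0.44) and malic enzyme *ME1* (-0.26), with standard errors of 0.14, 0.08 and 0.08 and edgeR adjusted p of 0.0076, 0.00014 and 0.017. *IDH2* did not pass without sgNF2-1 replicate 1 (adjusted p = 0.065), nor *ME1* without sgCtrl replicate 1 (0.051) or sgNF2-1 replicate 1 (0.12). Of 9 tested genes of haem and iron handling, 2 were higher and 2 lower (median -0.08), near the same shares of all tested genes. The transferrin receptor *TFRC* (-0.48, standard error 0.08, edgeR adjusted p = 3.5e-05) and the biliverdin reductase *BLVRB* (-0.33, 0.09 and 0.0063) were lower, and the constitutive haem oxygenase *HMOX2* (0.32, 0.09 and 0.0078) was higher. *BLVRB* was lost without sgNF2-1 replicate 2 (adjusted p = 0.065) and *HMOX2* without sgCtrl replicate 2 (0.055).

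Catalase and both intracellular superoxide dismutases were the 3 lower genes of the last list, of 5 tested and none higher (median -0.37), where 16.6% of all tested genes were lower and 17.7% higher. *CAT* fell from 19.6 ± 2.38 to 11.0 ± 0.0727 CPM (mean ± SD, 3 libraries each; -0.83, standard error 0.13, edgeR adjusted p = 2.2e-05), *SOD1* by 0.37 (standard error 0.09, edgeR adjusted p = 0.0017) and *SOD2* by 0.26 (standard error 0.09, edgeR adjusted p = 0.022) on the log2 scale. *SOD2* did not pass without sgCtrl replicate 1 (adjusted p = 0.098) or sgNF2-1 replicate 2 (0.090) or 3 (0.058).

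**Figure D4:**
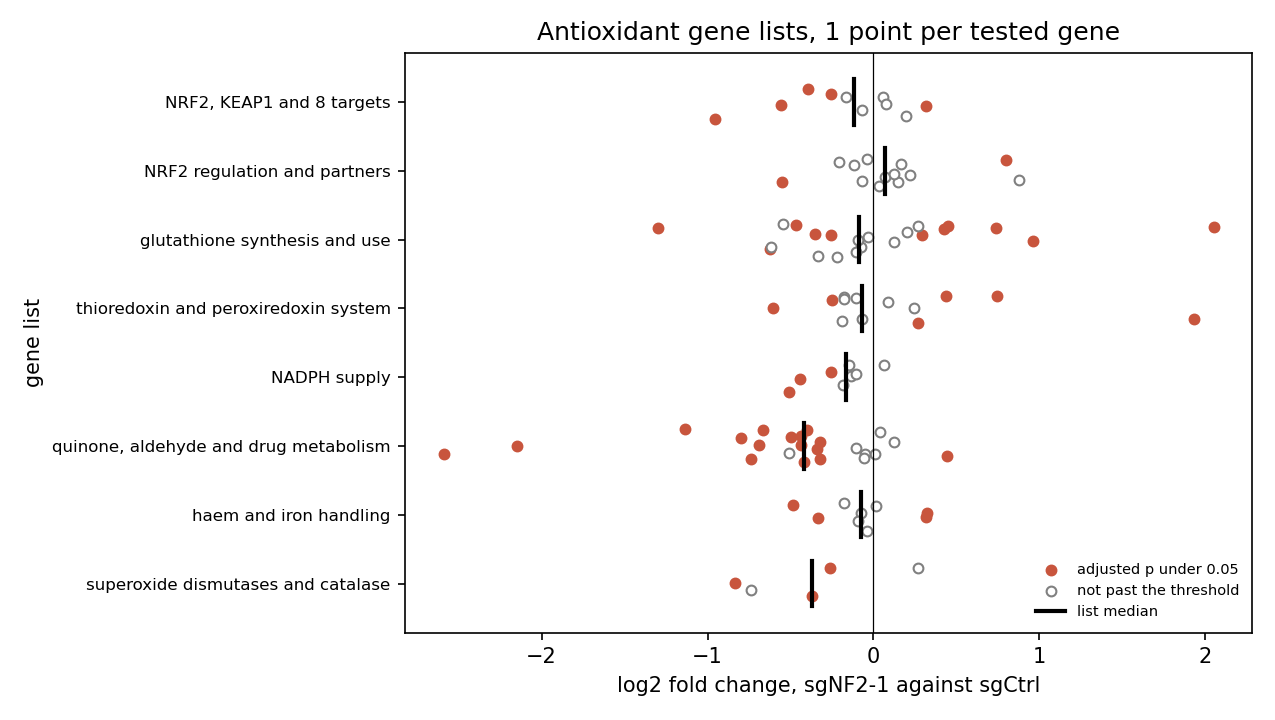
Log2 fold change in sgNF2-1 against sgCtrl (x axis) of every tested gene of the 8 lists (y axis), with genes past an edgeR adjusted p of 0.05 filled and list medians as black lines. The median of quinone, aldehyde and drug metabolism lies furthest to the left at -0.42, and *CHAC1* and *SESN2* lie furthest to the right at 2.05 and 1.93.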

How the data were processed

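Total RNA of 6 H2452 libraries was sequenced as paired-end reads on a NovaSeq platform. The deposited tables hold unnormalized read counts by gene and, in a separate table, FPKM values computed by the authors. The submitters' processing notes name HISAT2, StringTie 1.3.3b, featureCounts 1.5.0-p3 and hg38. The 58735 gene identifiers all occur in GENCODE release 29, with the same start and end for the 10 genes.

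Groups and replicate numbers came from the sample titles. In R 4.3.3, counts were filtered with filterByExpr (minimum count 10, minimum total 15), normalized by TMM and tested with edgeR 4.0.16 over 14179 genes, with Benjamini-Hochberg adjustment. The standard error is the log2 fold change over the root of its F value, and 95% intervals span 1.96 standard errors. FPKM values were tested with limma 3.58.1 on log2(FPKM + 1) for 13038 genes with a mean of at least 0.5. Alternatives were DESeq2 1.42.0, other scalings, filters, call rules and a pseudocount of 0.1, a replicate block, leaving out each library, and summed *AKR1C* counts. The procedures were tested on simulated data.

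The members, lists and tests were chosen with earlier results of these data known. Named genes are the 10 members and *NF2*. From each wider list, the 3 called genes with the largest absolute fold change were named, and *CUL3*, *SQSTM1*, *BACH1*, *MAFF*, *MAFG*, *MAFK*, *AKR1C2*, *AKR1C3* and *SLC7A11* whatever their values. *MSLN*, *WT1*, *PDPN*, *KRT5*, *KRT7*, *KRT8*, *KRT18*, *KRT19*, *CALB2*, *UPK3B*, *PTPRC*, *PECAM1* and *AKR1C4* come from lists, and genes overlapping a member from the annotation. One further marker is not reported here.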

Additional observations from a re-analysis of the deposited data

How the results depend on the processing

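The direction of *NFE2L2*, *AKR1C1*, *GCLM* and *TXNRD1* and their side of the adjusted threshold were the same in all 12 alternative count fits, and the median of the 10 genes lay between -0.17 and -0.07. With library totals only, the median of all tested genes was -0.03. Under the fold limit of 0.5, with an adjusted or an unadjusted p, 0 of the 10 genes were higher and 2 lower, and of the wider lists 6 were higher and 13 (adjusted) or 14 (unadjusted) lower, against 14 and 31 without it. With each library left out, 1 gene was higher and 3 or 4 were lower in the count fits, the difference being *NQO1*. On FPKM with limma, the number of higher genes was 0 to 1 with each library left out, and it was 0 without the filter and with the replicate block, while 3 or 4 genes were lower. The replicate numbers were not taken as pairs. Over all tested genes, deviations from the group means of same-numbered libraries correlated at -0.03, 0.06 and 0.05. By the same measure, sgCtrl replicate 1 correlated best with sgNF2-1 replicate 3. Other values did follow the number in both groups. The TMM factor fell from replicate 1 to 3 (1.025, 1.022 and 0.981 in sgCtrl, 1.012, 0.996 and 0.965 in sgNF2-1), and the CPM of *AKR1C1* and *NQO1* rose. The correlations therefore do not settle whether same-numbered libraries belong together. With the replicate block in edgeR, 1 gene was higher and 4 lower, as without it, and 15 and 35 of the wider lists were. The edgeR adjusted p of *NQO1* was 0.0033 with the block and 0.035 without it. Replicates within a group differed by more than sampling noise (chi-square per degree of freedom 4.85 to 11.5). For *SRXN1*, *HMOX1* and *GCLC*, the intervals given include changes in either direction, so that a change within them is not excluded. The intervals are not limits of detection, and the smallest change that could be called was not tested for these genes.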
